A study of Mus musculus with 6 samples.

Results

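The balance between inorganic phosphate and pyrophosphate in mineralizing matrix was examined through 8 genes, Alpl, Phospho1, Smpd3, Enpp1, Ank, Slc20a1, Slc20a2 and Mgp, found among 54532 counted genes. They were chosen by name for the roles of their proteins, with earlier results of these data known. The libraries are labelled as mouse bone marrow mesenchymal stem cells (BMSCs) of wild-type marrow, adherent stromal cells that can form osteoblasts. Macrophage transcripts were abundant in them as well. A list of 20 macrophage markers took from 3.12% to 3.69% of counts, and 20 general stromal markers from 0.635% to 1.09%. All 6 cultures spent 7 days in osteogenic medium with dexamethasone, ascorbic acid and 10 mM β-glycerophosphate, an organic phosphate that alkaline phosphatase can split. The 3 Ni cultures also received nickel ions at 0.1 μM, given as NiCl2, and the 3 control cultures received vehicle. The sample labels give 100 nM dexamethasone, whereas the study's methods give a lower concentration. The series design calls the cultures of each group independent biological replicates, without saying whether they came from different animals. Libraries held from 16101033 to 18642504 counts.

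Mineral forms in bone where phosphate is plentiful and pyrophosphate, a strong inhibitor of crystal growth, is scarce. Tissue-nonspecific alkaline phosphatase splits pyrophosphate and releases phosphate. ENPP1 makes pyrophosphate from extracellular ATP and ANK carries pyrophosphate or its ATP precursor out of the cell. PHOSPHO1 and the neutral sphingomyelinase SMPD3 act on the lipid side, where phosphocholine freed from membrane lipid is split to give phosphate inside matrix vesicles. PiT-1 and PiT-2, encoded by Slc20a1 and Slc20a2, bring phosphate into the cell with sodium. Matrix Gla protein, encoded by Mgp, keeps soft tissue and cartilage from calcifying.

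Of the 8 genes, Smpd3 and Alpl were about 2-fold higher in the Ni libraries and Slc20a1 was at 0.796 of its control level, and in these 3 genes the Ni and control libraries did not overlap. Enpp1, Ank, Slc20a2, Mgp and Phospho1 had overlapping groups. No member passed an adjusted p of 0.05, and neither did any of the 14624 genes tested (0% of genes, quasi-likelihood F-test of edgeR, adjusted by Benjamini-Hochberg). Before adjustment, 2 of 8 members were higher at p under 0.05, where 7.59% of all tested genes were, and 1 of 8 was lower, where 5.83% were. Separation of the groups gave the same members, 2 higher against 7.97% of all tested genes and 1 lower against 6.71%. The median log2 fold change was 0.042 over the members, with 5 of 8 positive, and -0.0099 over all tested genes, with 7028 positive. With 3 libraries against 3, the smallest p of an exact two-sided permutation test is 0.1, which Alpl, Smpd3 and Slc20a1 each gave. DESeq2's Wald test called Alpl and Smpd3 at an adjusted p of 0.05, 2 members higher against 1.46% of its genes, and none lower against 0.328%.

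Control replicate 3 stood apart from its group. Over all tested genes its mean distance, 1 minus Pearson's r of log2 CPM (TMM-scaled counts divided by library size), was 0.0131 to the Ni libraries and 0.0220 to the other controls. Leaving out this library raised the number of genes called at an adjusted p of 0.05 from 0 to 2283 in edgeR, 4 members among them. It lay nearer to the Ni group than to its own by the same values that are compared here. Here and below, p-values without control replicate 3 are therefore descriptive and add no support for a difference. With each of the other 5 libraries left out in turn, no member was called. Almost no gene was called there, 0.0866% of all tested genes without Ni replicate 2 and 0% in the rest. Without control replicate 3, the 3 members called higher were Alpl, Smpd3 and Enpp1, against 8.69% of tested genes. Slc20a1 was the 1 member called lower, against 6.49%. The osteoblast markers moved with Alpl and Smpd3: all 13, none of them among the 8 genes, had a positive log2 fold change. Their summed share of counts was 0.911% and 0.965% in control replicates 1 and 2 and 1.71% in control replicate 3. In the Ni libraries it was from 2.18% to 2.90%. Col1a1, Col1a2 and Ibsp held most of these counts, with 82472, 62706 and 17107 in control replicate 1. The share of 20 general stromal markers was 0.651%, 0.635% and 0.994% in control replicates 1 to 3 and from 1.01% to 1.09% in the Ni libraries. Of 20 macrophage markers 15 were negative on the log2 scale (median -0.17). At an unadjusted p under 0.05 in edgeR, 6 were lower, against 5.83% of all tested genes, and 0 higher, against 7.59%. Itgam at -0.40 and Cx3cr1 at -0.32 were among the 6. The summed share of these 20 markers overlapped, from 3.17% to 3.69% in controls and from 3.12% to 3.19% in Ni libraries. Lyz2, the most abundant of them, was highest in control replicate 3. In bulk RNA, a different share of cells of a type and a different amount of RNA per cell cannot be told apart, and the part of these cell mixtures in the differences below was not tested.

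**Figure D1:**
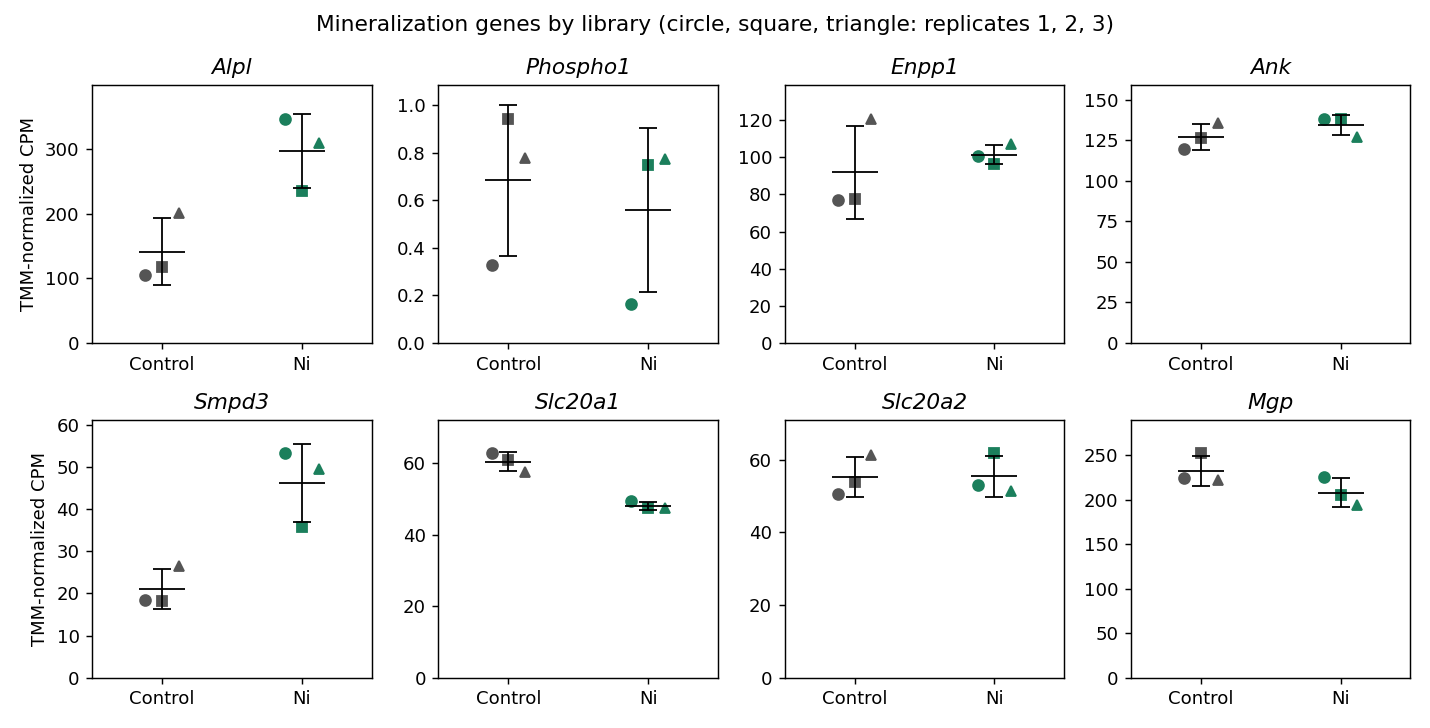
TMM-normalized CPM of the 8 genes (vertical axes, from 0) in control and Ni libraries, with circle, square and triangle for replicates 1, 2 and 3 and bars for mean ± SD (n = 3). Alpl and Smpd3 lie higher in every Ni library than in any control, Slc20a1 lies lower in every Ni library, and control replicate 3 is the highest control of Alpl, Smpd3 and Enpp1.

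Alpl (ENSMUSG00000028766), the alkaline phosphatase gene, lies on the minus strand of chromosome 4 of GRCm38 from 137741733 to 137796384, and none of its 4033 exon bases is shared with another gene. It has an upstream start, known for use in bone, and a downstream one inside an intron. The counts are per gene and do not separate them. Slc20a1 (ENSMUSG00000027397) lies on the plus strand of chromosome 2 from 129198764 to 129211616. The 250 bases before both Alpl starts and before the upstream Slc20a1 start are shown because these genes differed in opposite directions. They come from RefSeq on GRCm38.p6, which held promoter windows for 5 of the 8 members (Alpl, Ank, Enpp1, Phospho1 and Slc20a1). Each is written 5′ to 3′ on the gene's strand, and capitals mark the motifs found by letter on either strand: the Runx core, spelled ACCACA, the GC box, which has the letters GGGCGG, the TATA box searched as TATAAA, and the homeobox core, for which the letters were TAATTA.
Alpl upstream start, chr4:137796385-137796634, minus strand, just outside the gene: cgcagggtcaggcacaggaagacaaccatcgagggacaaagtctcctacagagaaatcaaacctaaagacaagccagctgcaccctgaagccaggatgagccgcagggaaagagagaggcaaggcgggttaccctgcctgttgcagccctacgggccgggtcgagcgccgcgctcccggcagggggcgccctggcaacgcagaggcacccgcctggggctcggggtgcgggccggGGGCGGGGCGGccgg
Alpl downstream start, chr4:137766476-137766725, minus strand, in an Alpl intron: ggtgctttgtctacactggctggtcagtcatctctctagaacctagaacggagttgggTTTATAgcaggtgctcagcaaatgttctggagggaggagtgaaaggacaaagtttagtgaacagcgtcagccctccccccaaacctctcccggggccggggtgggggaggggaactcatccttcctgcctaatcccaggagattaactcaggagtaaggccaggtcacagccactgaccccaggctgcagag
Slc20a1 upstream start, chr2:129198523-129198772, plus strand, its last 9 bases in the first annotated exon: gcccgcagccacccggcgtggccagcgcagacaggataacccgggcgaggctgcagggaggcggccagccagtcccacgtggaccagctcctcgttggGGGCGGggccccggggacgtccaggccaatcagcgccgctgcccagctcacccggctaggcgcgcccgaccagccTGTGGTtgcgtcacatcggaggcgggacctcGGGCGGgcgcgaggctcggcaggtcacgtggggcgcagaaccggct
The upstream Alpl window held 3 GC boxes, at -15, -10 and 1 from the start, of which the first pair overlap and the last lies past the bases shown. The downstream Alpl window held only a TATA box, read on the opposite strand at -192. The Slc20a1 window held GC boxes at -152 and -46, a Runx core on the opposite strand at -77 and a TATA box across the start at -1. Of the other members with a window, Enpp1 held a Runx core, at -144. All 5 members with a window held a GC box, with 2 in Ank, 1 in Enpp1 and 3 in Phospho1, and a second Slc20a1 window, at an intronic start, held 1. No window held the homeobox core. Among 32851 promoter windows of 300 bases, 16.8% held the Runx core, 35.7% the GC box, 13.6% the TATA box and 5.29% the homeobox core. These matches describe letters in a window and were not tied to binding.

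Alpl was at 105, 118 and 201 CPM in control replicates 1 to 3 and at 347, 235 and 309 CPM in Ni replicates 1 to 3. Every Ni library was above every control, with Ni replicate 2 the lowest Ni library and control replicate 3 the highest control. The control mean was 141 ± 51.9 CPM (SD, n = 3) and the Ni mean 297 ± 57.3 CPM (SD, n = 3). This is a 2.10-fold difference, or 1.07 on the log2 scale (SE 0.26, 95% interval from 0.48 to 1.67, adjusted p = 0.258 in edgeR). Without control replicate 3 Alpl rose by 1.42 on the log2 scale (SE 0.15, adjusted p = 0.000274 in edgeR), whereas with each other library left out it was from 0.90 to 1.22 higher, with adjusted p-values from 0.142 to 0.815. Alkaline phosphatase is also made by hypertrophic chondrocytes. The summed share of 8 chondrocyte markers was from 0.0149% to 0.0249% in controls and from 0.0288% to 0.0333% in Ni libraries, with 4 of the 8 passing the count filter. All 4 were higher without overlap, against 7.97% of all tested genes, and at an unadjusted p under 0.05 in edgeR, against 7.59%. Their log2 fold changes were 1.02 for Col10a1, the collagen of hypertrophic chondrocytes, 0.90 for Sox9, 0.75 for Comp and 0.50 for Col2a1. Comp and Col2a1 held most of the counts summed over the 8 markers. Of the untested ones, Acan had at most 4 counts in a library and Col9a1 had 0.

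Smpd3 (ENSMUSG00000031906), on the minus strand of chromosome 8 from 106252548 to 106337988, encodes a neutral sphingomyelinase whose loss in mice leaves bone and cartilage poorly mineralized. It was at 18.5, 18.1 and 26.6 CPM in control replicates 1 to 3 and at 53.3, 35.7 and 49.6 CPM in Ni replicates 1 to 3. As for Alpl, the groups did not overlap, with control replicate 3 highest of the controls and Ni replicate 2 lowest of the Ni libraries. The means were 21.1 ± 4.81 CPM (SD, n = 3) and 46.2 ± 9.29 CPM (SD, n = 3), a 2.19-fold difference. The difference was 1.13 on the log2 scale (SE 0.19, 95% interval from 0.70 to 1.56, adjusted p = 0.205 in edgeR), and without control replicate 3 it was 1.34 (SE 0.16, adjusted p = 0.000260 in edgeR). With each other library left out, Smpd3 was from 1.02 to 1.29 higher, with adjusted p-values from 0.0593 to 0.749 in edgeR. Of its 5232 exon bases, 247 are shared with Prmt7 on the opposite strand, and whether reads were counted by strand is not given in the sources used here.

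Phospho1 (ENSMUSG00000050860), on the plus strand of chromosome 11 from 95824499 to 95832140, encodes the phosphatase that acts after SMPD3 in the lipid route. Only 6, 15 and 13 reads were counted on it in control replicates 1 to 3 and 3, 13 and 14 reads in Ni replicates 1 to 3. The groups overlapped, and the log2 fold change of -0.27 had a 95% interval from -1.68 to 1.13, which does not leave out a change of 2-fold in either direction. The count itself is uncertain, because 89.6% of the 2029 exon bases of Phospho1 also belong to exons of Abi3 or Zfp652. Its level was therefore not compared with those of the other members.

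**Figure D2:**
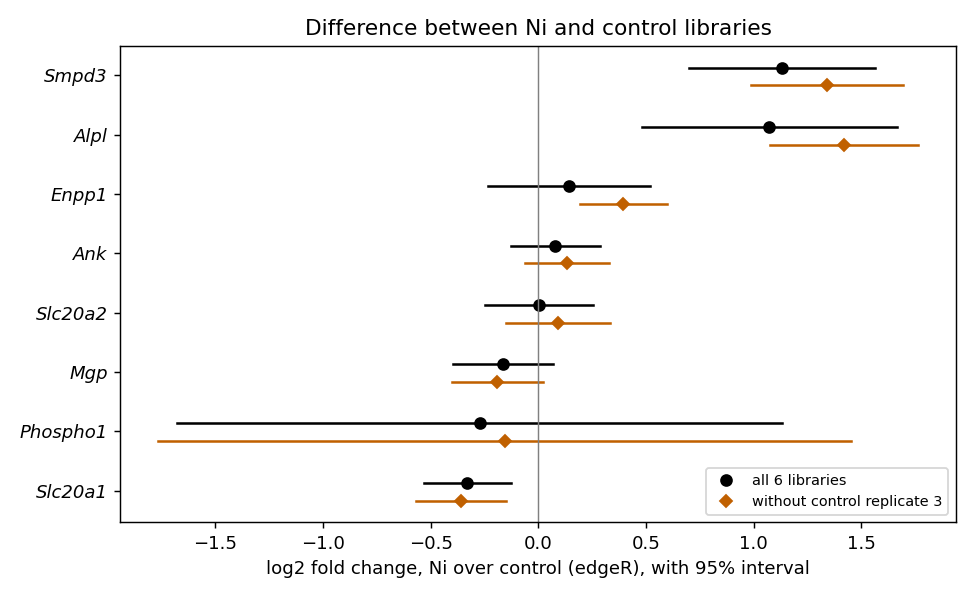
Log2 fold change of each gene between Ni and control libraries (horizontal axis, edgeR) with its 95% interval, from all 6 libraries (black circles) and without control replicate 3 (orange diamonds). The intervals of Smpd3, Alpl and Slc20a1 leave out 0 in both fits, that of Enpp1 does so only without control replicate 3, and that of Phospho1 is the widest.

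Enpp1 and Ank, the genes on the pyrophosphate side, differed little between the groups. Enpp1 (ENSMUSG00000037370, minus strand of chromosome 10 from 24637914 to 24712159) was at 77.0, 77.8 and 121 CPM in control replicates 1 to 3 and at 101, 96.6 and 107 CPM in Ni replicates 1 to 3. Control replicate 3 was above every Ni library, while the other controls were below every one. The log2 fold change was 0.14 (SE 0.17, 95% interval from -0.23 to 0.52, adjusted p = 0.751 in edgeR). Without control replicate 3 Enpp1 rose, by a log2 fold change of 0.40 (SE 0.092, adjusted p = 0.0123 in edgeR), so this library decides the call. Ank (ENSMUSG00000022265, plus strand of chromosome 15 from 27466677 to 27594909) was at 120, 126 and 136 CPM in controls and at 138, 138 and 127 CPM in Ni libraries. The groups of Ank overlapped, and its log2 fold change of 0.080 had a 95% interval from -0.13 to 0.29, which leaves out a difference as large as that of Alpl.

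The phosphate importers are described one by one and were not tested against each other. Slc20a1, which encodes PiT-1, was at 62.8, 61.1 and 57.6 CPM in control replicates 1 to 3 and at 49.5, 47.7 and 47.4 CPM in Ni replicates 1 to 3. Every Ni library was below every control, and the spread within each group was small, with means of 60.5 ± 2.64 CPM (SD, n = 3) and 48.2 ± 1.12 CPM (SD, n = 3). The Ni level was 0.796 of the control level, a log2 fold change of -0.33 (SE 0.090, 95% interval from -0.53 to -0.13, adjusted p = 0.273 in edgeR). Without control replicate 3 it was -0.36 (SE 0.095, adjusted p = 0.0238 in edgeR), and with each other library left out from -0.35 to -0.30, with adjusted p-values from 0.221 to 0.815. Of the 5580 exon bases of Slc20a1, 732 are shared with opposite-strand genes. Slc20a2 (ENSMUSG00000037656, plus strand of chromosome 8 from 22476788 to 22569612), which encodes PiT-2, was at 50.5, 53.7 and 61.4 CPM in controls and at 53.0, 61.7 and 51.3 CPM in Ni libraries. The ranges of Slc20a2 were nearly the same, with a log2 fold change of 0.0037 and a 95% interval from -0.25 to 0.26.

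Mgp (ENSMUSG00000030218, minus strand of chromosome 6 from 136872435 to 136875823), the inhibitor among these genes, was at 224, 252 and 222 CPM in control replicates 1 to 3 and at 226, 205 and 194 CPM in Ni replicates 1 to 3. The groups overlapped through Ni replicate 1. The log2 fold change was -0.16 (SE 0.10, 95% interval from -0.39 to 0.070, adjusted p = 0.520 in edgeR). Mgp is made by vascular smooth muscle and chondrocytes as well as by stromal cells. The summed share of 8 smooth muscle and pericyte markers was 0.0710%, 0.0742% and 0.144% in control replicates 1 to 3 and from 0.1247% to 0.1345% in Ni libraries. Acta2 held most of these counts. Of the 8 markers, 7 had a positive log2 fold change and Rgs5 was at -0.12.

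Levels of different genes were compared in FPKM, which divides counts by gene length. Phospho1 aside, Mgp had the highest FPKM of these genes in all 6 libraries, from 185 to 211 in controls and from 163 to 190 in Ni libraries. Ank and Alpl came next. In controls they overlapped, with Ank from 33.0 to 37.2 FPKM and Alpl at 25.9, 29.0 and 49.3 FPKM, so that their order was not fixed. In Ni libraries Alpl, at 85.8, 57.5 and 76.3 FPKM, was above Ank, from 35.1 to 38.1 FPKM, in all 3. Slc20a1 in controls, from 10.2 to 11.2 FPKM, lay above Slc20a2, from 8.07 to 9.78 FPKM. In Ni libraries both lay close together, with Slc20a1 from 8.45 to 8.84 FPKM and Slc20a2 from 8.22 to 9.82 FPKM. Opposite-strand genes share 13.1% of the exon bases of Slc20a1 and 1.53% of those of Slc20a2. The part of such reads in their levels, and in their ratio below, was not tested. Smpd3 lay below Enpp1, Slc20a1 and Slc20a2 in every control library, at 3.51, 3.44 and 5.04 FPKM. At 10.2, 6.75 and 9.44 FPKM it was above all of them in Ni replicate 1, below Enpp1 alone in Ni replicate 3 and still below all of them in Ni replicate 2.

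Ratios within a library compared the gene for the enzyme that splits pyrophosphate with those that supply it. The FPKM of Alpl was 3.47, 3.85 and 4.22 times that of Enpp1 in control replicates 1 to 3 and 8.77, 6.17 and 7.34 times in Ni replicates 1 to 3. These ratios did not overlap, and control replicate 3, in which both genes were high, lay near the other controls. The ratio of Alpl to Ank was 0.785, 0.836 and 1.32 in controls and 2.25, 1.52 and 2.18 in Ni libraries, again without overlap. The ratio of Slc20a1 to Slc20a2 was 1.39, 1.27 and 1.05 in controls and 1.04, 0.860 and 1.03 in Ni libraries. The gap between the groups in that last ratio was small, from 1.05 in control replicate 3 to 1.04 in Ni replicate 1. The ratios were not tested, since they are built from members already described.

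**Figure D3:**
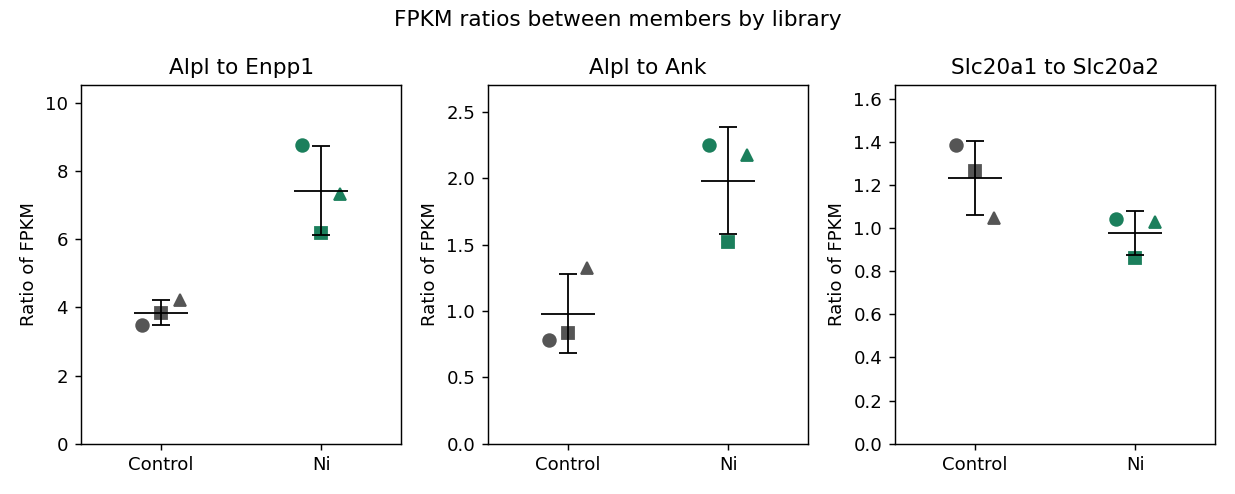
Ratio of FPKM values (vertical axes, from 0) of Alpl to Enpp1, Alpl to Ank and Slc20a1 to Slc20a2 in control and Ni libraries, with circle, square and triangle for replicates 1, 2 and 3 and bars for mean ± SD (n = 3). The Alpl to Enpp1 ratio is at most 4.22 in a control and at least 6.17 in a Ni library.

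For the 3 members whose groups did not overlap, the most similar genes were found by the mean absolute difference of mean-centered log2 CPM over the 6 libraries, among 9976 other genes with a mean log2 CPM of at least 3. For Alpl these were Col1a1 at 0.060, Fmod at 0.071 and Cpe at 0.072. For Smpd3 they were Rcor2 at 0.059, the pseudogene Gm7336 at 0.075 and Pth1r at 0.077. For Slc20a1 they were Aim2 at 0.030, Mtmr12 at 0.031 and the pseudogene Rpl34-ps1 at 0.033.

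Other genes of the pathway were described from a list of 52, of which 43 passed the count filter. None passed an adjusted p of 0.05 in edgeR. At an unadjusted p under 0.05, 10 were higher (7.59% of all tested genes were) and 1 was lower (5.83%) in the Ni libraries, with 25 of 43 positive, against 7028 of 14624, and a median log2 fold change of 0.14. The total of 11 was 21 without control replicate 3 and 5 without control replicate 1, control replicate 2, Ni replicate 1 or Ni replicate 3. The counts over all tested genes moved the same way, from 1110 higher and 853 lower to 2285 and 1840 without control replicate 3. In the fits that gave 5, from 599 to 694 of all tested genes were higher and from 269 to 354 lower. The adjusted p-values of these 11 genes ran from 0.208 to 0.370 in edgeR. The groups did not overlap in 7 genes that were higher, against 7.97% of all tested genes, and in 2 that were lower, Etnk1 and Pgap3, against 6.71%. In the phosphocholine and sphingomyelin route, 5 of 14 tested genes were higher and 1 was lower. Sgms2, a sphingomyelin synthase mutated in a form of human skeletal dysplasia, was at 24.8, 24.6 and 40.0 CPM in controls and at 82.2, 50.4 and 91.8 CPM in Ni libraries (log2 fold change 1.33, SE 0.27). Its groups did not overlap, and as for Alpl and Smpd3 the nearest pair was control replicate 3 and Ni replicate 2. Slc44a1, a choline transporter, had a log2 fold change of 0.60, Slc44a2, a relative of it, 0.28, and Gpcpd1, which splits glycerophosphocholine, 0.24. Enpp6, a choline-specific phosphodiesterase, had 1.02 from few reads, averaging 0.996 CPM in controls and 2.01 CPM in Ni libraries. Enpp2, which makes lysophosphatidic acid, was at 69.4, 68.8 and 37.6 CPM in controls and at 35.3, 45.3 and 38.4 CPM in Ni libraries, with a log2 fold change of -0.56 and control replicate 3 among the Ni values.

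Among genes for mineral inhibitors and systemic phosphate control, 3 of 4 tested genes were higher at an unadjusted p under 0.05 in edgeR, against 7.59% of all tested genes. Galnt3, which glycosylates the phosphate hormone FGF23, was at 6.72, 4.91 and 10.0 CPM in controls and at 19.9, 13.4 and 22.5 CPM in Ni libraries, which is 1.36 higher on the log2 scale (SE 0.27). Dmp1, an osteocyte matrix protein that is also an osteoblast marker here, was at 34.8, 38.0 and 57.5 CPM in controls and at 98.5, 69.4 and 89.8 CPM in Ni libraries, 0.98 higher on the log2 scale (SE 0.20). Phex, whose loss causes X-linked hypophosphatemia, was 1.47 higher on the log2 scale (SE 0.43), with control replicate 3 at 4.98 CPM just under Ni replicate 2 at 5.01 CPM. The groups did not overlap in any of these 3 genes, where 7.97% of all tested genes were higher without overlap. Fam20c, the kinase of secreted phosphoproteins, had a log2 fold change of -0.070. Fgf23, Ahsg and Fetub had at most 12 counts in a library and were not tested, and no read was counted on Kl.

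In the remaining groups of the list fewer genes passed. For pyrophosphate supply and breakdown, 0 of 7 tested genes passed an unadjusted p of 0.05. Of these 7, Nt5e (CD73), which turns AMP into adenosine and phosphate, had the highest log2 fold change, 0.79 (SE 0.36). Nt5e was at 38.5, 38.4 and 90.8 CPM in controls and 106, 77.2 and 106 CPM in Ni libraries, with control replicate 3 inside the Ni range. Abcc6, the transporter behind ATP release in the liver, had at most 2 counts in a library. The phosphate exporter Xpr1 had a log2 fold change of -0.0024 and the mitochondrial carrier Slc25a3 of -0.17, while no read was counted on Slc34a1 or Slc34a3, the kidney-type importers, and 1 read in all on Slc34a2. Matrix vesicle annexins gave 0 of 3, with log2 fold changes of -0.015 for Anxa5, -0.035 for Anxa6 and 0.33 for Anxa2. Anxa2 was at 574, 618 and 857 CPM in controls and at 869, 844 and 863 CPM in Ni libraries, with control replicate 3 inside the Ni range. Of 10 genes that load zinc into alkaline phosphatase or build its membrane anchor, 1 was higher, Piga, at a log2 fold change of 0.30, and 3 of 10 were positive. Of 3 genes for the vitamin K dependent carboxylation that activates matrix Gla protein, the carboxylase Ggcx was higher, at 0.37.

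**Figure D4:**
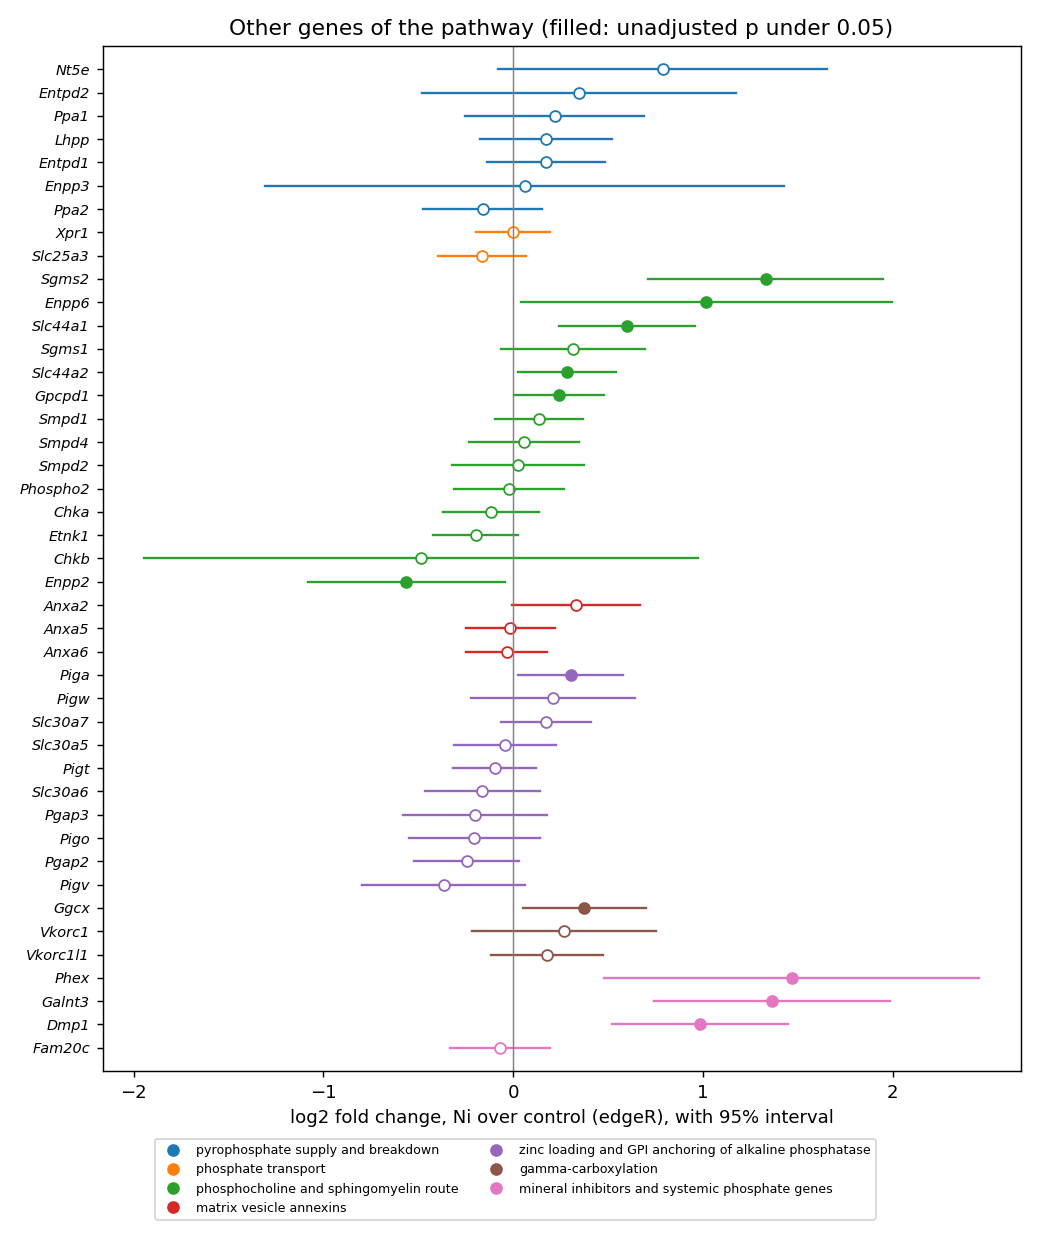
Log2 fold change between Ni and control libraries (horizontal axis, edgeR) with 95% intervals for the 43 tested genes of the pathway list, coloured by group, with filled points for an unadjusted p under 0.05. The 11 filled points include 10 to the right of 0, with Phex, Galnt3 and Sgms2 farthest, and Enpp2 to the left.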

How the data were processed

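RNA of 6 cultures, 3 Ni and 3 control, was sequenced from a random-primed NEBNext library. The authors deposited raw read counts per gene and FPKM values. The aligner, counter and strand setting are not given in the sources used here. The submitters' processing notes name GRCm38, and gene lengths and coordinates of all 8 members equal those of GENCODE M21. FPKM equalled the authors' counts divided by length and 1 factor per library (largest relative deviation 3.29e-07). Within-group chi-square per degree of freedom was at least 4.37, so no libraries were duplicates.

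Genes kept by filterByExpr (14624) were normalized by TMM and tested with edgeR 4.0.16 (glmQLFit, robust, glmQLFTest, R 4.3.3) with Benjamini-Hochberg adjustment. Standard errors are the unshrunk coefficient over the root of F, and 95% intervals use the test's degrees of freedom. Log2 CPM used a prior count of 2. DESeq2 1.42.0 and limma 3.58.1, on log2(FPKM + 1) and log2(FPKM + 0.1), were alternatives. The main edgeR fit, edgeR with a replicate block, DESeq2 and limma on log2(FPKM + 1) were tested on simulated data, and the other alternatives were not. The simulated data held no library apart from its group, as control replicate 3 is here. P-values measure the spread between these cultures, and depth ranged from 16101033 to 18642504 counts.

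The members and lists were chosen with earlier results of these data known. Named were all 8 members, pathway genes with an unadjusted p under 0.05, and the 3 genes most similar to each member whose groups did not overlap. Other genes named were chosen after their values were seen. Protein sequences were not used here.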

Additional observations from a re-analysis of the deposited data

How the results depend on the processing

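The count of members at an adjusted p under 0.05, 0 of 8 in edgeR, was 2 with DESeq2's Wald test (Alpl and Smpd3, against 1.79% of all tested genes), 2 with no filter on low counts (the same genes, 3.97%), 1 with the replicate block (Smpd3, 2.15%), 2 with the replicate block and the gene-length trend removed (Alpl, adjusted p = 0.0491, and Smpd3, 0.0180, against 1.75%) and 3 with TMM factors from the general stromal list alone (Smpd3, Slc20a1 and Mgp, against 27.6%). It stayed 0 with DESeq2 size factors, library totals, at least 10 counts in every library, the gene-length trend removed and both limma fits. Each of those fits called 0% of all tested genes, so these zeros are not particular to the members. Leaving out each library gave from 0 to 4, the 4 without control replicate 3, against 15.2% of all tested genes. The other libraries left out gave 0 members, against 0.0866% of all tested genes without Ni replicate 2 and 0% in the rest. Alpl, Smpd3, Slc20a1 and Mgp kept their sign under all 17 alternatives, Alpl from 0.63 to 1.42, Smpd3 from 0.65 to 1.34, Slc20a1 from -0.86 to -0.30 and Mgp from -0.69 to -0.10, with adjusted p-values of Alpl from 0.000274 to 0.815 and of Smpd3 up to 0.749.

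Scaling by the stromal list moved the median of all tested genes from -0.0099 to -0.53, and of the genes at an unadjusted p under 0.05 then 141 were higher and 7136 lower, against 1110 and 853. There, 5 members and 22 pathway genes passed an unadjusted p of 0.05, against 3 and 11. Enpp1 was then at -0.32, Ank at -0.43 and Slc20a2 at -0.49, below 0 but above that median, and Alpl at 0.63 and Smpd3 at 0.65 were also above it. With each library left out, the pathway count ranged from 5 to 21. It was 5 without control replicate 1, control replicate 2, Ni replicate 1 or Ni replicate 3. It was 13 without Ni replicate 2 and 21 without control replicate 3, and the cause was not tested. Of all tested genes, 2285 were higher and 1840 lower without control replicate 3, and 1249 and 1197 without Ni replicate 2. In the fits that gave 5, from 599 to 694 were higher and from 269 to 354 lower. Members whose groups did not overlap ranged from 3 to 5, the 5 without control replicate 3. With a library left out groups separate more easily, and the share of all tested genes was not computed there. Slc20a2 was -0.0086 with the gene-length trend removed and -0.0095 with the replicate block as well, and ranged from -0.079 to 0.092 over the libraries left out. Phospho1 ranged from -0.62 to 0.17 over these, above 0 without control replicate 2 or Ni replicate 1, and at least 10 counts in every library removed it.

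Deviations from the group means correlated at 0.0104, 0.256 and 0.138 between libraries of replicate number 1, 2 and 3, and the numbers were not taken as a pairing. Depth limits Phospho1 most, with at most 15 counts in a library.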

Other observations

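Another phosphatase of the cultures, chosen after its values were seen, was Acp5, the tartrate-resistant acid phosphatase of osteoclasts and macrophages. It was at 1013, 1190 and 417 CPM in control replicates 1 to 3 and at 481, 506 and 415 CPM in Ni replicates 1 to 3, so that control replicate 3 lay in the Ni range and the other controls lay above it. Its log2 fold change was -0.90, with an adjusted p of 0.352 in edgeR. The other tested osteoclast markers did not share one direction, with log2 fold changes of -0.83 for Mmp9, 0.62 for Ctsk and 0.24 for Atp6v0d2. Ctsk was at 62.6, 66.3 and 137 CPM in controls and at 140, 114 and 154 CPM in Ni libraries. Col10a1, also chosen after its values were seen, was at 5.63, 4.72 and 7.92 CPM in controls and at 13.5, 9.32 and 14.4 CPM in Ni libraries, without overlap.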
